A study of Mus musculus with 12 samples.

Results

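Vascular endothelial growth factor (VEGF) and the angiopoietins are the main ligands that act on receptor kinases of the endothelial cells lining brain capillaries. The genes described here are 10 of this system: the VEGF receptors Kdr, Flt1 and Flt4, the co-receptor Nrp1, the ligand Vegfa, the angiopoietin receptors Tek and Tie1, the ligands Angpt1 and Angpt2, and endoglin (Eng). They were taken as the rows of the deposited table whose single gene symbol in the array annotation is one of these names. Each gene had exactly 1 probe set, so they are 10 of the 19935 genes, and 10 of the 21780 probe sets, with a single symbol. The list was chosen by measured values of the same arrays: earlier results, in which Kdr was among the leading falls from saline, were known when it was drawn up. The differences from saline are therefore given as a description, and the counts of these 10 genes past the threshold stand beside the share of all probe sets past it.

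As background, VEGF-A signals chiefly through Kdr (VEGFR2) to promote endothelial survival, growth and permeability. Angiopoietin 1, released by cells around the vessel, activates Tek (Tie2) and keeps the vessel wall quiescent, while angiopoietin 2 often opposes it. In the adult brain these receptors sit mainly on endothelium, whereas Vegfa RNA comes largely from astrocytes, neurons and choroid plexus epithelium.

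RNA came from the striatum of 2-month-old male Swiss-Albino mice, with RNA of 4 mice pooled on each Affymetrix Mouse Gene 1.0 ST array. The butyrate-morphine group (ButMorphine in the labels, 3 arrays) received sodium butyrate at 300 mg/kg, an inhibitor of histone deacetylases, before morphine at 20 mg/kg in each of 6 induction trials on alternate days. The morphine group (SalMorphine, 3 arrays) received saline before the same morphine, and the saline group (Saline, 6 arrays) received saline only. Both morphine groups received a morphine challenge 7 days after induction, and RNA was taken 1 h later. For the saline group the sources differ: the sample names give a saline challenge, while by the protocol every animal was challenged with morphine. The comparisons with saline thus cover either the repeated and the challenge injections together or the repeated ones alone.

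Values are differences on a scale taken as log2 from a baseline set by the authors. The saline arrays form 3 mirrored pairs (1 with 2, 3 with 4, 5 with 6), each adding up to 0 for every probe set within 1e-06. The saline mean is thus 0 for each gene by construction, and the 6 saline arrays carry 3 independent values per gene. Array medians lay between -0.02 and 0.01. Centring removed the level of each gene, apart from a coarse class read from the rounding: Vegfa was stored at 8 or more and the other 9 genes between 4 and 8. Of 9 probe sets for striatal neuron markers 8 were in the upper class, as were 3 of 20 for endothelial markers. The labels do not say whether the pools of a group were separate cohorts of mice. A p-value here therefore reflects only the spread left among pools, and precision is limited by how few arrays there are. Since each saline pair adds up to 0, the saline arrays show differences within pairs, and any difference between pairs is absent. The SD over all probe sets was 0.05 to 0.08 in the saline arrays. In the other arrays, where group differences add to it, it was 0.11 to 0.15. The saline ranges below may thus be narrower than the spread of separate pools. The limma fit below counts the 6 saline arrays as separate values, so its p-values and intervals may overstate precision.

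Of the endothelial receptors and co-receptors, Kdr, Flt1, Tek and Eng lay below saline in both morphine groups. In each group none of their arrays overlapped the saline arrays, and Kdr was about as far below saline with butyrate-morphine (-0.59) as with morphine alone (-0.64). Flt4, Nrp1, Tie1 and the ligands Vegfa, Angpt1 and Angpt2 overlapped saline in both groups. In the limma fit over all probe sets, 4 of the 10 genes were lower and 0 higher at an adjusted p under 0.05 in the butyrate-morphine arrays, where 2.35% of all probe sets passed, 0.592% as lower and 1.76% as higher. In the morphine arrays 4 were again lower and 0 higher, where 2.45% of all probe sets passed, 1.15% as lower and 1.3% as higher. Arrays entirely below saline were seen for 4.57% of probe sets in the butyrate-morphine group and for 4.17% in the morphine group. The median over the 10 genes was -0.10 in the butyrate-morphine arrays, where that over all probe sets was 0.01, and -0.07 in the morphine arrays, where it was 0.00. Both comparisons share their saline arrays. In pooled tissue, fewer endothelial cells and less RNA per cell cannot be told apart.

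The promoters of these 4 genes are shown because the genes lay below saline in the same arrays. The windows hold 250 bases before and 50 after the RefSeq start site (GRCm38.p6), 5′ to 3′ on the gene's strand, and capitals mark each match to the 5 motifs searched on both strands.
Kdr, chr5:75978406-75978705, minus strand: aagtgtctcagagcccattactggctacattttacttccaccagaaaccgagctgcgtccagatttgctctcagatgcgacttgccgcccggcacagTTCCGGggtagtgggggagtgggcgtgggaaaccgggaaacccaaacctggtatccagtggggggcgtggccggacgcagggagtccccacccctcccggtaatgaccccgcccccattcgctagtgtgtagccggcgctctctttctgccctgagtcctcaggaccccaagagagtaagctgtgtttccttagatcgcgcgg
Flt1, chr5:147725962-147726261, minus strand: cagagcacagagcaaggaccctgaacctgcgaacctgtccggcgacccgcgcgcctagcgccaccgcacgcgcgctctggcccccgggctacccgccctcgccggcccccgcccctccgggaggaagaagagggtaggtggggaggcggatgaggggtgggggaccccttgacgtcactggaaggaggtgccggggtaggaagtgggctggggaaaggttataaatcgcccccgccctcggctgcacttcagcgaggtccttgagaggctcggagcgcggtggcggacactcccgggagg
Tek, chr4:94739039-94739338, plus strand: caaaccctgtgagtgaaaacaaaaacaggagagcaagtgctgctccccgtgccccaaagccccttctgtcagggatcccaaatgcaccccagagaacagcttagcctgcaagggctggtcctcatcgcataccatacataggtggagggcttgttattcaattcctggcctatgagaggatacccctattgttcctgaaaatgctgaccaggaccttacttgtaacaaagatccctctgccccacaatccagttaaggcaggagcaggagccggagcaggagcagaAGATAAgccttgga
Eng, chr2:32646345-32646644, plus strand: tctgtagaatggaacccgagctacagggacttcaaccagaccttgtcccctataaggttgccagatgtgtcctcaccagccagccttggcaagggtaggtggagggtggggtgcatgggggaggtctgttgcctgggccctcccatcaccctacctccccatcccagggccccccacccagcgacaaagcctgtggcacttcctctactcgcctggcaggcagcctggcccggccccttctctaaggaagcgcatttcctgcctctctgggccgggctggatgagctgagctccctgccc
The motifs were the ETS forms ACAGGAA and CCGGAA, the GATA form AGATAA, the hypoxia element core ACGTG and the glucocorticoid element pattern ACANNNTGT. Kdr held 1 match to CCGGAA, on the opposite strand, and Tek held 1 match to AGATAA just after the start site. Flt1 and Eng held 0 matches to any of the 5, which says only that these letters are not in these windows. Over 32851 windows of the same length, 8.67% held ACAGGAA, 14.9% CCGGAA, 11.2% AGATAA, 19.6% ACGTG and 6.85% ACANNNTGT. Base composition differed among the 4: G and C made up 60.7% of the Kdr window, 70.7% of Flt1, 52% of Tek and 63.3% of Eng, against a median of 52.7% over all windows. Windows were found for 8 of the 10 genes, and none was given for Angpt1 or Angpt2.

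**Figure D1:**
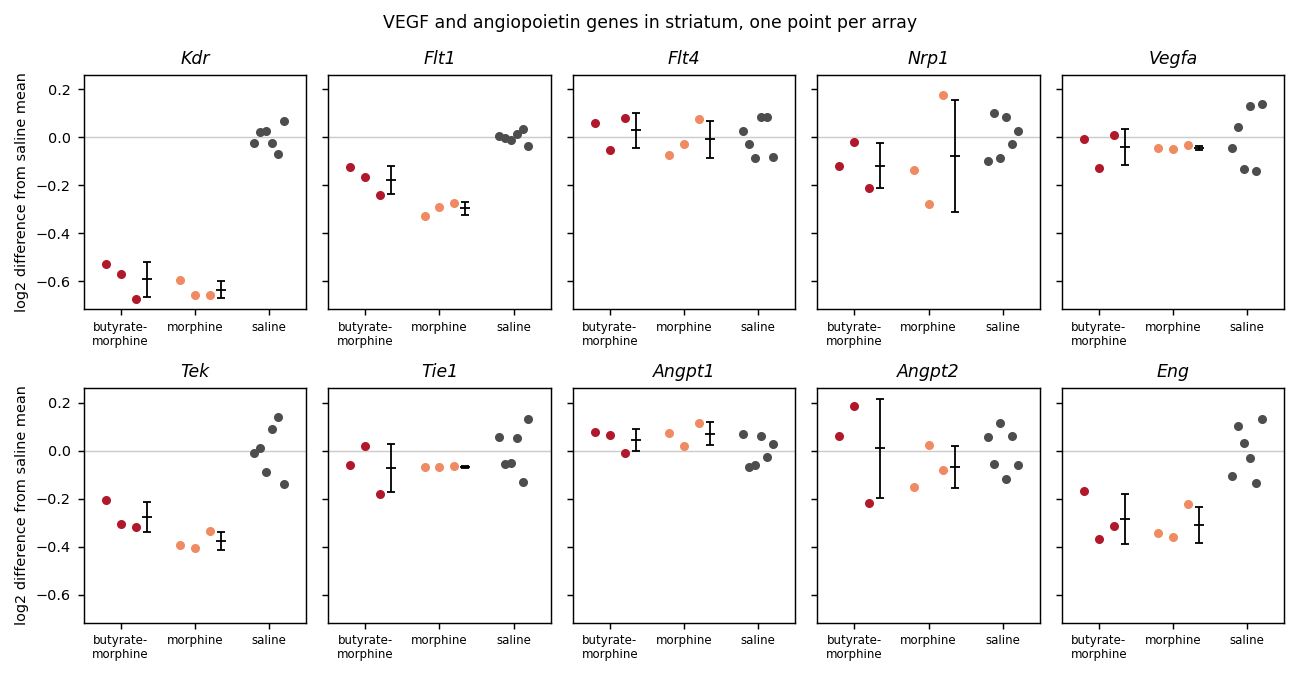
Values of the 10 VEGF and angiopoietin genes, 1 point per array, as the log2 difference from the saline mean (y axis) in butyrate-morphine, morphine and saline arrays (x axis); bars are the mean ± SD of the 3 arrays to their left. Kdr lies between -0.67 and -0.53 in all 6 morphine-treated arrays, and Flt1, Tek and Eng lie below the saline arrays by smaller amounts.

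Kdr, the receptor through which VEGF-A mainly signals, showed the largest difference of the 10. It was at -0.53, -0.57 and -0.67 in the butyrate-morphine arrays and at -0.59, -0.65 and -0.66 in the morphine arrays. The saline arrays ran from -0.07 to 0.07 around a median of 0. The 6 morphine-treated arrays thus formed a narrow band far from saline. The level was 0.664 of saline in the butyrate-morphine group (-0.59 ± 0.07, SD, n = 3) and 0.644 of saline in the morphine group (-0.64 ± 0.04, n = 3).

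Flt1 (VEGFR1), which binds VEGF-A tightly but signals weakly and can act as a decoy, was at -0.12, -0.17 and -0.24 in the butyrate-morphine arrays. In the morphine arrays it was at -0.33, -0.29 and -0.27, and the saline arrays ran from -0.04 to 0.04 with a median of 0. All 3 morphine arrays were below all 3 butyrate-morphine arrays, and all 6 were below saline. The level was 0.885 of saline with butyrate-morphine (-0.18 ± 0.06) and 0.814 with morphine (-0.30 ± 0.03).

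Flt4 (VEGFR3), the receptor for VEGF-C and VEGF-D best known from lymphatic vessels, was at 0.06, -0.05 and 0.08 in the butyrate-morphine arrays and at -0.07, -0.03 and 0.08 in the morphine arrays. Saline ran from -0.08 to 0.08, so the 3 groups covered nearly the same range. The 95% intervals of its difference from saline were -0.08 to 0.14 with butyrate-morphine and -0.12 to 0.10 with morphine.

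Nrp1, a co-receptor for VEGF-A and for class 3 semaphorins that neurons also express, varied most among the morphine arrays. It was at -0.12, -0.02 and -0.21 in the butyrate-morphine arrays, at -0.13, -0.28 and 0.18 in the morphine arrays, and between -0.10 and 0.10 in saline. Morphine array 3 was above every saline array while morphine arrays 1 and 2 were below every one, so the group had no common direction (-0.08 ± 0.23). The butyrate-morphine mean was -0.12 ± 0.10.

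Vegfa, the ligand itself, was at -0.01, -0.13 and 0.01 in the butyrate-morphine arrays and at -0.04, -0.05 and -0.03 in the morphine arrays. Its saline arrays ran from -0.14 to 0.14 and enclosed all 6 of the others. The 95% intervals of the difference were -0.18 to 0.10 with butyrate-morphine and -0.18 to 0.10 with morphine, and a change within these bounds was not detectable with these arrays.

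Tek, the receptor of the angiopoietins, was at -0.20, -0.30 and -0.32 in the butyrate-morphine arrays and at -0.39, -0.40 and -0.33 in the morphine arrays. Saline ran from -0.14 to 0.14 with a median of 0. Every morphine array was below every butyrate-morphine array, and all 6 were below saline. The level was 0.826 of saline with butyrate-morphine (-0.28 ± 0.06) and 0.77 with morphine (-0.38 ± 0.04).

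Tie1, the relative of Tek that modulates its signalling, was at -0.06, 0.02 and -0.18 in the butyrate-morphine arrays and at -0.07, -0.07 and -0.06 in the morphine arrays. Saline ran from -0.13 to 0.13 and overlapped both groups. The 3 morphine arrays lay close together (-0.07 ± 0.003), inside the saline range, and the 95% interval of the difference was -0.19 to 0.05. With butyrate-morphine the interval was -0.20 to 0.05.

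Of the ligands of Tek, Angpt1 was at 0.08, 0.07 and -0.01 in the butyrate-morphine arrays, at 0.07, 0.02 and 0.12 in the morphine arrays, and between -0.07 and 0.07 in saline. Angpt2, which endothelial cells store and release, was at 0.06, 0.19 and -0.22 in the butyrate-morphine arrays, at -0.15, 0.02 and -0.08 in the morphine arrays, and between -0.12 and 0.12 in saline. Both overlapped saline in both groups. The SD of Angpt2 among the butyrate-morphine arrays, 0.208, was the widest of the 10 genes in that group, since array 2 lay above all saline arrays and array 3 below all of them.

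Eng encodes endoglin, an endothelial co-receptor for bone morphogenetic proteins that works with the receptor kinase Acvrl1. It was at -0.17, -0.37 and -0.31 in the butyrate-morphine arrays and at -0.34, -0.36 and -0.22 in the morphine arrays, against -0.13 to 0.13 with a median of 0 in saline. All 6 morphine-treated arrays were below saline, butyrate-morphine array 1 by a small margin. The level was 0.822 of saline with butyrate-morphine (-0.28 ± 0.10) and 0.807 with morphine (-0.31 ± 0.07).

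Kdr stood apart from the other 3 in size. Its 95% interval was -0.68 to -0.50 with butyrate-morphine and -0.72 to -0.55 with morphine. With butyrate-morphine the intervals were -0.42 to -0.14 for Eng, -0.40 to -0.15 for Tek and -0.25 to -0.11 for Flt1. With morphine they were -0.50 to -0.26 for Tek, -0.45 to -0.17 for Eng and -0.37 to -0.23 for Flt1. Within each comparison these 3 overlap each other, so their order was not resolved.

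**Figure D2:**
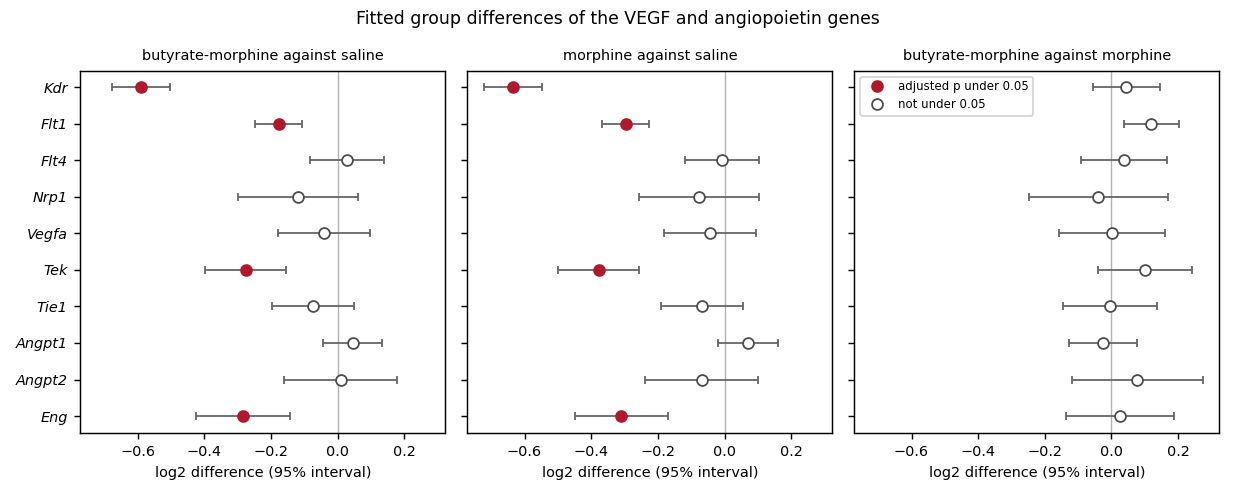
Fitted log2 differences (x axis) of the 10 genes (y axis) with 95% intervals from limma, for butyrate-morphine against saline, morphine against saline and butyrate-morphine against morphine; filled points have an adjusted p under 0.05 over all 21780 probe sets. Kdr, Flt1, Tek and Eng are filled in the first 2 panels, and no gene is filled in the last.

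Kdr passed the threshold in all 24 alternative fits run for it in each comparison with saline, with differences of -0.62 to -0.52 for butyrate-morphine and -0.66 to -0.48 for morphine. The other 3 depended on single arrays with butyrate-morphine, and Eng did with morphine. With butyrate-morphine, Flt1 missed the threshold without butyrate-morphine array 2 or 3 (limma adjusted p = 0.0526 and 0.0626). Tek missed it without either of these (0.108 and 0.0837) or saline array 1 or 4 (0.0521 and 0.0533). Eng missed it without butyrate-morphine array 2 or 3 (0.176 and 0.115) or saline array 2, 3, 4 or 6 (up to 0.0751). Without butyrate-morphine array 2 or 3, Kdr was thus the 1 gene of the 10 that passed. With morphine, Flt1 and Tek passed in every fit without 1 array, while Eng missed the threshold without morphine array 1 or 2 (0.052 and 0.0807) or saline array 2 or 3 (0.0594 and 0.0529). Eng passed in 11 of 24 alternative fits with butyrate-morphine and in 13 of 24 with morphine.

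Butyrate-morphine against morphine asks whether these genes differed when butyrate was given before morphine during induction. No group received butyrate without morphine. An effect of butyrate itself and an altered response to morphine therefore cannot be told apart. None of the 10 genes passed (limma, adjusted p from 0.414 to 0.998), and over all probe sets 0 of 21780 passed, 0%, with 1898, 8.71%, at an unadjusted p under 0.05. Flt1 had the lowest unadjusted p of the 10, 0.00768 (limma adjusted p = 0.414), with a difference of 0.12 and a 95% interval of 0.04 to 0.20. Flt1 was higher in 3 of 3 butyrate-morphine arrays than in any morphine array, as was Tek (0.10, interval -0.04 to 0.24). Such a separation in that direction was seen for 7.73% of all probe sets. Kdr differed by 0.04 with an interval of -0.06 to 0.14, and Eng by 0.03 with an interval of -0.14 to 0.19. For Vegfa the interval was -0.16 to 0.16, for Angpt1 -0.13 to 0.08 and for Angpt2 -0.12 to 0.27. A p that misses the threshold does not show that the 2 morphine groups were alike.

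Across the 12 arrays, the 4 lower genes varied together, with a Pearson r of 0.95 for Flt1 and Tek, 0.92 for Kdr and Flt1, 0.90 for Kdr and Eng, and 0.87 for Kdr and Tek. For Flt1 and Eng r was 0.80 and for Tek and Eng 0.72. These values are descriptive, since the points share the difference between groups and the mirrored saline arrays. The named genes most like Kdr over the 12 arrays, by r, were P2ry13 (0.97), Gbp4 (0.97), Cxcl12 (0.96), Calm3 (0.96) and Sting1 (0.96). Those most like Tek were Zswim5 (0.97), Kremen1 (0.97), Slc8a3 (0.96), Clec2d (0.95) and H2-T24 (0.95). Those most like Flt1 were Zswim5 (0.97), Cdc42ep1 (0.95), Id3 (0.95), Slc40a1 (0.95) and Trerf1 (0.94), so Zswim5 led the order for both Tek and Flt1.

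Other genes of the pathway were counted from lists that leave the 10 genes out. Their counts, like those of the marker lists further on, stand against the same 2.35% of all probe sets with butyrate-morphine and 2.45% with morphine, and nothing particular to a list is read from its count. Among 6 other VEGF ligands and co-receptors, 1 was higher and 0 were lower with butyrate-morphine, and 0 passed with morphine. The 1 was Pgf, placental growth factor, which binds Flt1 but not Kdr (0.16 ± 0.04 with butyrate-morphine, limma adjusted p = 0.0397, and 0.08 ± 0.04 with morphine). Pgf missed the threshold without any 1 of the 3 butyrate-morphine arrays or without saline array 1, 2, 3, 4 or 6 (adjusted p up to 0.164). It also missed it without any 1 of the 3 mirrored saline pairs (0.0844 to 0.169). Of 7 other genes of the angiopoietin system 0 passed in either comparison. Ptprb, the phosphatase that restrains Tek, had the lowest p of them (0.02 ± 0.06 with butyrate-morphine and -0.13 ± 0.03 with morphine, limma adjusted p = 0.137 for morphine).

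Of 15 partners and targets of endoglin, 1 was higher and 1 lower in each comparison with saline. Id3, a target gene of bone morphogenetic protein signalling, fell in both groups (-0.24 ± 0.02, limma adjusted p = 0.00929 with butyrate-morphine, and -0.37 ± 0.01, 0.000355 with morphine). Tgfbr3 (betaglycan), which resembles endoglin and binds transforming growth factor beta, rose in both (0.33 ± 0.07, 0.00338 with butyrate-morphine, and 0.30 ± 0.04, 0.00651 with morphine). Acvrl1, the kinase paired with endoglin, did not pass: it was at -0.19 ± 0.04 with butyrate-morphine and -0.23 ± 0.15 with morphine (adjusted p = 0.174 and 0.105). With butyrate-morphine, Id3 missed the threshold without butyrate-morphine array 2 (0.0535) or without saline arrays 5 and 6 (0.0505). With morphine, Tgfbr3 missed it without saline arrays 1 and 2 (0.0501). In the morphine comparison, Acvrl1 passed without morphine array 2 (0.0415) and the inhibitory gene Smad7 without morphine array 1 (0.023).

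Among 12 genes of endothelial Notch signalling and tip cells, which limit and guide vessel sprouting, 1 was higher and 1 lower with butyrate-morphine, and 0 were higher and 1 lower with morphine. Jag1, a Notch ligand, fell in both groups (-0.28 ± 0.10, limma adjusted p = 0.00222 with butyrate-morphine, and -0.38 ± 0.03, 0.000181 with morphine). Hes1, a Notch target expressed in many cell types, rose with butyrate-morphine (0.41 ± 0.11, 0.000546) and was at 0.12 ± 0.07 with morphine. The difference of Hes1 between the 2 morphine groups, 0.29, did not pass (limma adjusted p = 0.228). Without morphine array 1, Hey1, another Notch target, passed as lower with morphine (0.0215).

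Of 16 measured genes of signalling downstream of Kdr, 0 passed in either comparison. The adaptor gene Shb had the lowest p of them (-0.12 ± 0.14 with butyrate-morphine and -0.24 ± 0.07 with morphine, limma adjusted p = 0.0699 for morphine). With morphine, Shb passed without butyrate-morphine array 1 (0.0377) or with each mirrored saline pair counted once (0.0494), and the kinase gene Prkca passed without morphine array 1 (0.0321), both as lower. With butyrate-morphine, the GTPase gene Rac1 passed as higher without butyrate-morphine array 2 (0.0435). Of 8 semaphorin and plexin genes, which encode the other ligands and partners of neuropilins, 0 passed. Plxnd1, an endothelial plexin, was at -0.04 ± 0.04 with butyrate-morphine and -0.21 ± 0.22 with morphine, where it passed without morphine array 1 (0.0126).

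Vegfa is itself a hypoxia-responsive gene, and 22 probe sets for 18 other genes of that response were read beside it. In each comparison 1 probe set was higher and 0 were lower. It was Slc2a1, also the glucose transporter of the blood-brain barrier (0.58 ± 0.07, limma adjusted p = 6.48e-05 with butyrate-morphine, and 0.46 ± 0.09, 0.000469 with morphine). The median over the 22 was 0.01 with butyrate-morphine and -0.02 with morphine.

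Of 20 measured endothelial markers outside the VEGF and angiopoietin genes, 2 were higher and 1 lower with butyrate-morphine, and 1 was higher and 2 lower with morphine. With butyrate-morphine 13 of the 20 were below 0, around a median of -0.01, and at an unadjusted p under 0.05 there were 4 higher and 2 lower. With morphine 15 of the 20 were below 0, around a median of -0.10, and at an unadjusted p under 0.05 there were 2 higher and 9 lower. Over all probe sets 46.0% were below 0 with butyrate-morphine and 52.0% with morphine. Cldn5, a tight junction protein, fell (-0.74 ± 0.09, limma adjusted p = 0.00118 with butyrate-morphine, and -0.57 ± 0.12, 0.00834 with morphine). Mfsd2a, the lipid transporter that limits transcytosis at the barrier, rose (0.47 ± 0.04, 0.000546 with butyrate-morphine, and 0.39 ± 0.15, 0.00298 with morphine). Egfl7, a secreted endothelial protein, was at -0.16 ± 0.06 with butyrate-morphine and fell with morphine (-0.21 ± 0.05, 0.0171). The efflux transporter gene Abcg2 rose with butyrate-morphine (0.17 ± 0.02, 0.00982) and was at 0.08 ± 0.02 with morphine. The junction genes found in all endothelium did not pass: Pecam1 was at 0.08 ± 0.10 with butyrate-morphine and -0.15 ± 0.05 with morphine, and Cdh5 at -0.07 ± 0.05 with butyrate-morphine and -0.20 ± 0.08 with morphine.

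Several of these calls turned on 1 array. With morphine, Cldn5 and Egfl7 missed the threshold without morphine array 3 (limma adjusted p = 0.0557 and 0.0541), and Cd34, a surface protein of endothelium, passed as lower without morphine array 1 (0.00229). With butyrate-morphine, Abcg2 missed it without butyrate-morphine array 1 (0.0602). In the same comparison Egfl7 as lower and Ramp2 as higher passed without morphine array 1 (0.0454 and 0.0474) or 2 (0.0464 and 0.0454). Mfsd2a in both comparisons and Cldn5 with butyrate-morphine passed in every fit without 1 array or 1 mirrored saline pair. Without saline arrays 5 and 6 Cldn5 missed the threshold with morphine (0.0521), as did Egfl7 without any 1 of the 3 saline pairs (0.061 to 0.0881). Abcg2 missed it with butyrate-morphine without saline arrays 1 and 2 (0.0789).

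**Figure D3:**
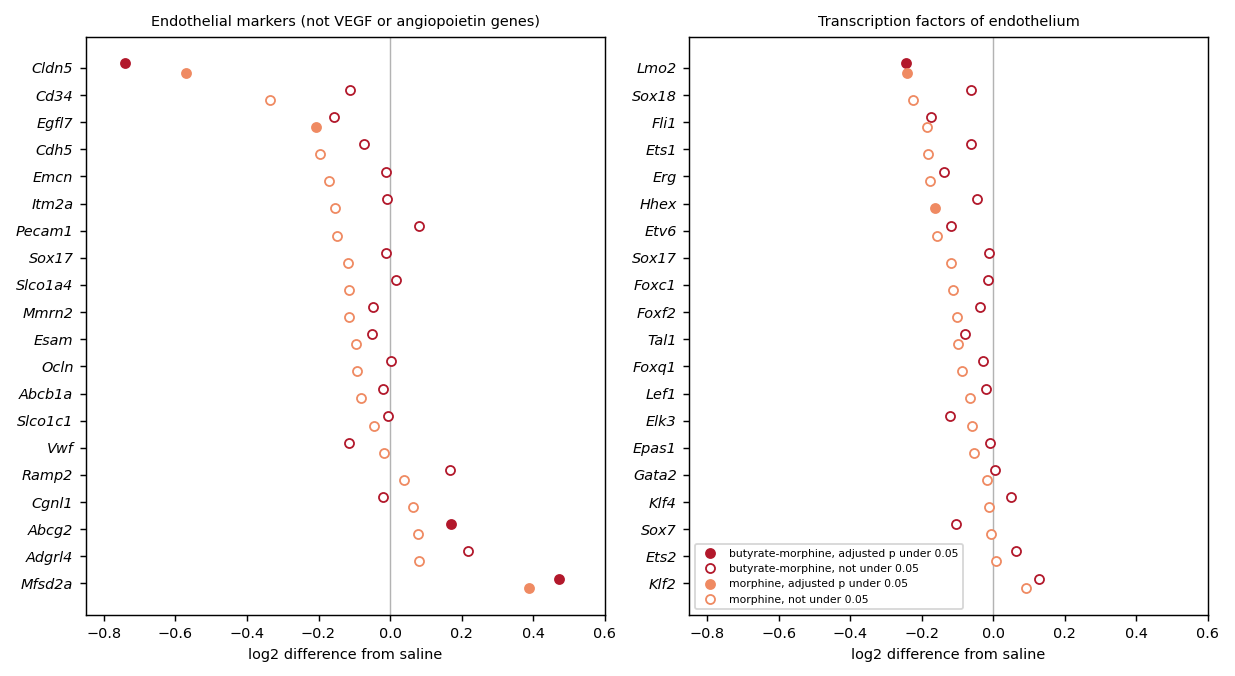
Log2 differences from saline (x axis) of 20 endothelial markers that are not VEGF or angiopoietin genes (left) and of 20 transcription factors of endothelium (right), for butyrate-morphine and morphine; filled points have an adjusted p under 0.05. Cldn5 is lowest at -0.74 with butyrate-morphine and -0.57 with morphine, and Mfsd2a is highest at 0.47 with butyrate-morphine and 0.39 with morphine.

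Sox17 stands in both lists of that plot. The mean over the 20 endothelial markers was -0.04 to 0.01 in the butyrate-morphine arrays, -0.12 to -0.07 in the morphine arrays and -0.05 to 0.05 in the saline arrays. Taken relative to this mean within each array, Kdr was at -0.58 ± 0.05 in the butyrate-morphine arrays and -0.54 ± 0.06 in the morphine arrays, and ran from -0.08 to 0.08 in saline. On the same scale Flt1 was at -0.16 ± 0.03 in the butyrate-morphine arrays and -0.21 ± 0.01 in the morphine arrays, with -0.04 to 0.04 in saline. Tek was at -0.26 ± 0.04 in the butyrate-morphine arrays and -0.29 ± 0.04 in the morphine arrays, with -0.13 to 0.13 in saline. Eng was at -0.27 ± 0.09 in the butyrate-morphine arrays and -0.22 ± 0.07 in the morphine arrays, with -0.14 to 0.14 in saline. Relative to the marker mean, these 4 genes were below every saline array in all 6 morphine-treated arrays, though Eng in 1 morphine array by almost nothing. Angpt1 went the other way on this scale. It was at 0.09 to 0.20 in the morphine arrays, above every saline array (-0.08 to 0.08), where the marker mean itself was at -0.12 to -0.07. In the butyrate-morphine arrays Angpt1 was at 0.03 to 0.08. These are descriptions with no test. The share of all probe sets that separate from saline on this scale was not computed, so nothing is read from the separations. The 4 genes were also named because they lay below saline in the same arrays.

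Of 20 transcription factors that act in endothelium, 0 were higher and 1 lower with butyrate-morphine, and 0 were higher and 2 lower with morphine. Lmo2, a cofactor of blood and vessel development, fell in both (-0.24 ± 0.07, limma adjusted p = 0.0257 with butyrate-morphine, and -0.24 ± 0.11, 0.026 with morphine). Hhex, a homeobox gene, was at -0.05 ± 0.01 with butyrate-morphine and fell with morphine (-0.16 ± 0.05, 0.0355). The median over the 20 was -0.04 with butyrate-morphine and -0.10 with morphine. Below 0 were 16 of the 20 with butyrate-morphine and 18 with morphine. At an unadjusted p under 0.05, 3 were lower with butyrate-morphine and 8 with morphine, and 0 were higher in either. Lmo2 missed the threshold with butyrate-morphine without butyrate-morphine array 1 or 3 or saline array 2 or 4 (adjusted p up to 0.13). With morphine it missed it without morphine array 2 or 3 or saline array 2, 3, 4 or 5 (up to 0.118). Hhex missed it without morphine array 1 or 3 or saline array 1, 2, 3 or 5 (up to 0.11). Without any 1 of the 3 mirrored saline pairs, Lmo2 missed it in both comparisons (0.0934 to 0.112) and Hhex with morphine (0.101 to 0.154). Ets1 passed as lower with morphine without saline array 6 (0.034).

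Markers of other cells moved in the same arrays, and their part in the results above was not tested. In the vessel wall, 0 of 12 pericyte and smooth muscle markers passed with butyrate-morphine and 1 was lower with morphine, the pericyte gene Rgs5 (-0.11 ± 0.09 with butyrate-morphine and -0.26 ± 0.08 with morphine, limma adjusted p = 0.0129). Rgs5 passed in every fit without 1 array, but missed the threshold without any 1 of the 3 mirrored saline pairs (adjusted p = 0.0539 to 0.0779). The mean over the list was -0.07 to 0.01 in the butyrate-morphine arrays, -0.11 to 0.02 in the morphine arrays and -0.02 to 0.02 in the saline arrays. With morphine, Pdgfrb passed as lower without morphine array 2 (0.041) and Vtn without butyrate-morphine array 2 (0.0339).

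Of 9 microglia markers, 2 were lower with butyrate-morphine and 3 with morphine, and 0 were higher. The nucleotide receptor gene P2ry13, the gene most like Kdr above, fell (-0.45 ± 0.07, limma adjusted p = 0.000767 with butyrate-morphine, and -0.52 ± 0.03, 0.000258 with morphine). Cx3cr1, the fractalkine receptor, fell as well (-0.32 ± 0.06, 0.00551 with butyrate-morphine, and -0.30 ± 0.07, 0.00882 with morphine). Itgam was at -0.13 ± 0.03 with butyrate-morphine and fell with morphine (-0.21 ± 0.08, 0.0398). Averaged over the list, microglia markers were at -0.20 to -0.15 in the butyrate-morphine arrays, -0.25 to -0.16 in the morphine arrays and -0.07 to 0.07 in the saline arrays. With morphine, Cx3cr1 missed the threshold without morphine array 3 (0.0544) or without saline arrays 5 and 6 (0.0513). In that comparison Itgam missed it without any 1 of the butyrate-morphine arrays, morphine array 2 or 3, or saline array 1, 4, 5 or 6 (up to 0.143).

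Astrocytes and the choroid plexus are sources of Vegfa. Of 10 astrocyte markers 1 was higher in each comparison, the connexin gene Gjb6 (0.31 ± 0.05, limma adjusted p = 0.0326 with butyrate-morphine, and 0.41 ± 0.08, 0.00651 with morphine), and 0 were lower. Averaged over the list, astrocyte markers were at 0.02 to 0.11 in the butyrate-morphine arrays, 0.03 to 0.09 in the morphine arrays and -0.03 to 0.03 in the saline arrays. With butyrate-morphine, Gjb6 missed the threshold without any 1 of the butyrate-morphine arrays or without saline array 1, 2, 4 or 6 (up to 0.143). It also missed it without saline arrays 1 and 2 (0.138) or 5 and 6 (0.0858). In the same comparison Gfap passed as higher without morphine array 1 (0.0494) or saline array 5 (0.0469), or with each mirrored saline pair counted once (0.0431).

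The mean of the choroid plexus markers lay above saline in every morphine-treated array. Of 8 measured, 7 were higher with butyrate-morphine and 8 with morphine. The thyroid hormone carrier gene Ttr was at 3.42 ± 0.23 with butyrate-morphine and 3.75 ± 0.08 with morphine. The channel genes Kcnj13 and Clic6 and the klotho gene Kl were at 2.07, 0.75 and 0.94 with butyrate-morphine and at 2.58, 0.83 and 1.14 with morphine. The mean over the list was 0.96 to 1.26 in the butyrate-morphine arrays, 1.30 to 1.54 in the morphine arrays and -0.14 to 0.14 in the saline arrays. Vegfa lay within the saline range in the same arrays. Aqp1, the 8th gene, was at 0.24 ± 0.10 with butyrate-morphine and passed with morphine (0.34 ± 0.14, limma adjusted p = 0.0429), but not without butyrate-morphine array 1, morphine array 1 or 2, or saline array 1, 2, 3, 4 or 6 (up to 0.115). In butyrate-morphine against morphine, Folr1 passed as lower without morphine array 3 (0.0475). With butyrate-morphine, Otx2 missed the threshold without butyrate-morphine array 1 (0.0693) or any 1 of the 3 mirrored saline pairs (0.0556 to 0.0653).

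Of 9 striatal neuron markers, 0 passed with butyrate-morphine and 2 were lower with morphine, Pde10a (-0.17 ± 0.06, limma adjusted p = 0.0291) and the dopamine receptor gene Drd2 (-0.16 ± 0.03, 0.0426). With butyrate-morphine Pde10a was at -0.08 ± 0.03 and Drd2 at -0.04 ± 0.07. With morphine 9 of the 9 were below 0, and 8 were lower at an unadjusted p under 0.05. With butyrate-morphine 6 of the 9 were below 0, and 0 were lower at that p. The list mean was -0.06 to 0.02 in the butyrate-morphine arrays, -0.17 to -0.11 in the morphine arrays and -0.06 to 0.06 in the saline arrays. Pde10a missed the threshold without morphine array 3 or saline array 2, 3, 4 or 5 (up to 0.133), and Drd2 without butyrate-morphine array 1, morphine array 2 or 3, or any saline array (up to 0.118). With morphine, Gpr6 passed without butyrate-morphine array 1 or 2 or morphine array 1 (adjusted p from 0.0213 to 0.0358) and with each mirrored saline pair counted once (0.0406), and Rgs9 without morphine array 2 (0.0416).

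The mean of the glucocorticoid-induced genes also lay above saline in every morphine-treated array. Of 14 measured, 14 were higher with butyrate-morphine and 11 with morphine, and 0 were lower. Sgk1, a kinase gene switched on by glucocorticoids, was at 1.05 ± 0.12 with butyrate-morphine and 1.06 ± 0.07 with morphine. Zbtb16, Nfkbia and Pdk4 were at 1.17, 0.74 and 0.91 with butyrate-morphine and at 0.92, 0.64 and 0.80 with morphine. The mean over the list was 0.56 to 0.70 in the butyrate-morphine arrays, 0.49 to 0.53 in the morphine arrays and -0.03 to 0.03 in the saline arrays. Without 1 array, 10 to 14 of the 14 were higher with butyrate-morphine and 10 to 13 with morphine. In butyrate-morphine against morphine, with all 12 arrays, 0 genes passed in each of the lists given above.

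**Figure D4:**
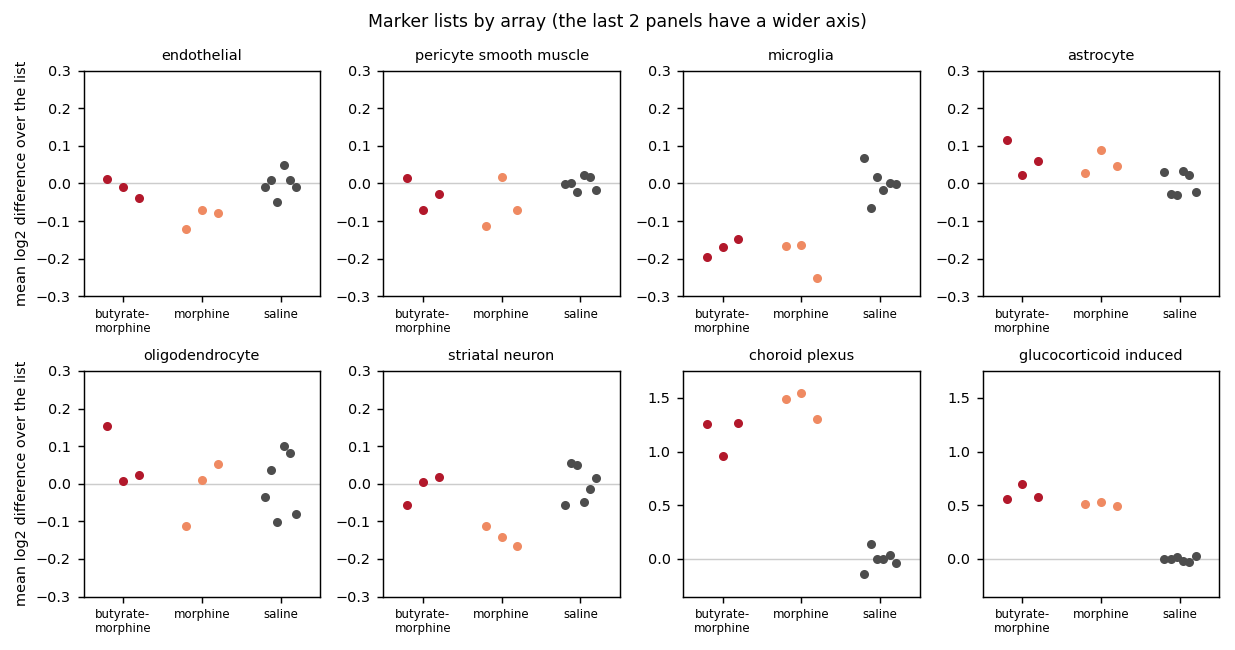
Mean log2 difference from saline over each marker list (y axis), 1 point per array, for butyrate-morphine, morphine and saline arrays (x axis); the choroid plexus and glucocorticoid panels have a wider axis. Choroid plexus and glucocorticoid-induced genes lie above saline in all 6 morphine-treated arrays and microglia markers below it, while the endothelial mean is at -0.04 to 0.01 with butyrate-morphine and -0.12 to -0.07 with morphine.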

How the data were processed

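The 12 arrays each measured the striatal RNA of 1 pool of mice. The authors deposited a table of 28815 rows with log2 differences from a baseline. The log base and the steps of background correction and normalization were not given in the sources used here, and log2 was taken because the rounding of the deposited values fits stored values between 4 and 16. Direction was taken as deposited. Gene names came from the platform annotation: 21780 rows had 1 gene symbol and were tested, 1605 had several and 5430 had none.

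Groups came from the sample titles. limma 3.58.1 in R 4.3.3 (lmFit and eBayes) modelled the 3 group means over all 12 arrays together (9 residual and 3.87 prior degrees of freedom, median residual SD 0.0743). It entered the 6 saline arrays as separate values although they carry 3 independent values per gene. The residual degrees of freedom are therefore overstated. P-values were adjusted by Benjamini-Hochberg over the 21780 probe sets, and 0.05 was the threshold. A list mean averages genes within an array. On simulated arrays (5 runs, 200 of 21780 probe sets changed, morphine against saline), 60.6% of 1.2-fold, 97.3% of 1.5-fold and 100% of 2-fold changes were recovered. Of all calls there, 10.7% were false, more than the threshold of 0.05 is meant to allow. The simulated noise used the residual SD of the fit. Each simulated array had the mean of 1 saline pair subtracted by its number, which is not known for the real arrays.

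The members and lists were chosen with earlier results of these data known. Named genes are all 10 members; from each list up to 4 genes past the threshold by lowest p in any comparison, otherwise the 1 with the lowest p; and the 5 named genes most correlated with Kdr, Tek and Flt1. Acvrl1, Pecam1, Cdh5 and genes that pass only without 1 array were named after their values were seen. List genes without a probe set of a single symbol were not analysed here. The planned description of the receptor proteins was not run, because no protein sequences were used here. Alternatives were median centring, quantile normalization, all rows, only values stored at 8 or more, 1 value per gene, a fit with trend and robust, a fit with array weights, fitting the 2 compared groups alone, a block for the replicate number, mirrored saline arrays counted once, each saline pair left out, each array left out, and thresholds of 0.01 and 0.1.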

Additional observations from a re-analysis of the deposited data

How the results depend on the processing

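Of 723 values of the 10 genes under the alternatives, 647 kept their direction and side of the threshold, 44 missed a threshold they had passed, and 32 values that never passed changed sign. Only calls of Kdr, Flt1, Tek and Eng against saline could be lost, and all 44 losses were of Flt1, Tek and Eng. With butyrate-morphine Flt1 passed in 16, Tek in 15 and Eng in 11 of 24 alternative fits. With morphine these genes passed in 23, 22 and 13 of 24. None of the called values changed sign. With butyrate-morphine against saline, the number of the 10 genes passing, 4, was 1 with quantile normalization, 1 with trend and robust, 1 at a threshold of 0.01, and 1, 1 and 2 without saline arrays 1 and 2, 3 and 4, or 5 and 6. Leaving out 1 array gave 1 (butyrate-morphine array 2 or 3) to 4. With morphine against saline, 4 became 2 with quantile normalization, and 3 with trend and robust, with array weights and without any 1 saline pair, since Eng missed the threshold each time (adjusted p from 0.0539 to 0.114). Leaving out 1 array gave 3 to 4. Counting each mirrored saline pair once kept the 4 genes in both comparisons. That fit takes the saline mean as exactly 0, without error, and passed more probe sets: 674 with butyrate-morphine and 660 with morphine. Keeping the 4 genes there is therefore not a strict check on the mirrored arrays. Among values stored at 8 or more, 0 passed in either comparison, where only Vegfa of the 10 was tested. In butyrate-morphine against morphine, 0 of the 10 passed under every alternative run. The cause of these changes was not tested.

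With the replicate number as a block, 1 of the 10 genes passed with butyrate-morphine and 1 with morphine, Kdr in both. Numbers 4 to 6 occur only in the saline group, so those arrays add nothing to this fit. Mirrored partners also fall in different blocks, and few residual degrees of freedom remain. Calls lost under the block are therefore not read further. Of the genes of the other lists, 14 of 35 calls with butyrate-morphine and 16 of 36 with morphine were kept under the block. Mfsd2a missed the threshold there in both (adjusted p = 0.109 with butyrate-morphine and 0.191 with morphine), as did Cldn5 (0.0506 and 0.129). Without a saline pair 27 to 29 of the 35 and 25 to 26 of the 36 were kept. Lost whichever pair was left out were Pgf, Otx2, Lmo2, Plin4, Klf9 and Mt1 with butyrate-morphine. With morphine they were Rgs5, Egfl7, Lmo2, Hhex, Itgam, Aqp1, Pde10a and Drd2. With each mirrored pair counted once, which takes the saline mean as exactly 0, all were kept. Gfap with butyrate-morphine and Shb and Gpr6 with morphine were added. Same-numbered arrays did not deviate together (r of their deviations from the group means between -0.27 and 0.20). For the saline arrays this r cannot settle a pairing, because partners mirror each other and the mean of each pair is 0. The labels state no pairing by number. Over all probe sets, 512 passed with butyrate-morphine (383 higher and 129 lower): 97 with quantile normalization, 178 among values stored at 8 or more, 218 with trend and robust, 978 with array weights, 1134 with only the 2 groups, 38 with the block, 157 to 198 without a saline pair, 168 and 1108 at thresholds of 0.01 and 0.1, and 206 (without butyrate-morphine array 1) to 807 (without morphine array 2) without 1 array. For morphine the number was 534 (284 higher and 250 lower): 70 with quantile normalization (56 higher and 14 lower), 208 among values stored at 8 or more (65 and 143), 222 with trend and robust, 49 with the block, 146 to 196 without a saline pair, 151 and 1015 at thresholds of 0.01 and 0.1, and 219 (without morphine array 3) to 1092 (without morphine array 1) without 1 array. For butyrate-morphine against morphine it was 0, with 2 for all rows, 1 with array weights and up to 27 without 1 array (morphine array 1). When 1 saline array is left out its mirrored partner stays, which moves the saline mean off 0.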

Other observations

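Further cell types were read by their marker lists. Of 9 oligodendrocyte markers 0 passed with butyrate-morphine or morphine, and the myelin gene Mag, with the lowest p, was at 0.15 ± 0.05 with butyrate-morphine and 0.01 ± 0.07 with morphine (limma adjusted p = 0.127 and 0.942). Of 2 measured markers of red blood cells 0 passed, with Alas2 at 0.18 ± 0.05 with butyrate-morphine and 0.02 ± 0.11 with morphine. Of 9 meningeal fibroblast markers 1 was higher in each comparison, the growth factor gene Igf2, which the choroid plexus also expresses (0.62 ± 0.13 with butyrate-morphine and 0.85 ± 0.10 with morphine, limma adjusted p = 0.000196 and 1.76e-05). Dcn passed as higher with morphine without morphine array 1 (adjusted p = 0.0303).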
